A study of Arabidopsis thaliana with 36 samples.

Results

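Shoots of the Arabidopsis thaliana line 35S:PHT5;1-GFP#12, called line 12, were compared after 3 days of phosphate (Pi) starvation with shoots of the same line at sufficient Pi, and every gene with an AGI locus code was read in both states. The comparison rests on 4 of the 36 libraries of the series, 2 at each Pi supply, and on 28496 genes. All seedlings were raised for 10 days on 250 μM Pi with sucrose and were then harvested, or were moved to 10 μM Pi for 1 or 3 days. Starved seedlings were therefore also 3 days older than the sufficient ones, and starvation, age and transfer cannot be told apart. WT is the ecotype Columbia, and line 4 is an independent line of the same construct, so that line 12 and line 4 are each 1 transgenic line. In both lines the 35S promoter, which is active in nearly all plant cells, drives PHT5;1 joined to green fluorescent protein. Each library held RNA of a pool of whole shoots, so fewer cells of a type and less RNA per cell cannot be told apart. Nothing in the labels says that replicates came from separate cultures, and p-values measure only the spread between these libraries.

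PHT5;1 is a transporter of the vacuolar membrane with an SPX domain that carries Pi into the vacuole, the main Pi store of a leaf cell. When Pi runs short, plants release this store and switch on a set of genes through the transcription factor PHR1, which binds a short palindrome named P1BS and is held back by SPX proteins while Pi is plentiful. Among the targets are the non-coding RNAs AT4 and IPS1, which bind the microRNA miR399 and so spare its target PHO2, an enzyme that marks Pi transporters for breakdown, as well as acid phosphatases, Pi transporters, and enzymes that replace membrane phospholipids with galactolipids and sulfolipids.

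Expression was given as RPKM, a read count divided by transcript length and by the mapped reads of its library, and the libraries of line 12 held 34.0 and 24.2 M reads at sufficient Pi and 32.4 and 24.8 M after 3 days. The second library of line 12 at sufficient Pi stood apart from the others of the comparison. It is among 5 second-replicate shoot libraries that hold reads of genes seen in no first-replicate library, and such genes made up 0.935% of its summed RPKM against 0.00018% in the second 3-day library. The labelled tissue fitted its markers: the 6 shoot markers summed to 15780 to 25140 RPKM in the 4 libraries, while the 9 root markers summed to 0.593 to 1.85 RPKM and none was at 0 in all 4. PHT5;1 (AT1G63010) stood at 65.9 and 74.5 RPKM at sufficient Pi and at 56.2 and 52.6 after 3 days, and its log2 change of -0.36 (standard error 0.19) did not pass the test (adjusted p = 0.169 from limma). In WT it stood at 15.2 and 14.7 RPKM at sufficient Pi, below every library of line 12. Reads of the transgene and of the native gene were not separated in these values. PAP26 (AT5G34850), a vacuolar acid phosphatase gene, was near 0 in all 4 libraries of line 12 (0.0289 to 0.0609 RPKM) and at 61.0 to 72.1 RPKM in the matching WT libraries, so no response of it could be read in the line.

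After 3 days of starvation, lower genes outnumbered higher ones in the line 12 shoot. Of 19773 genes tested, 489 rose (2.47%) and 1146 fell (5.8%) where a call needed both an adjusted p under 0.05 and a change of the mean RPKM by 2 times or more (limma on log2(RPKM + 0.25), whose pseudocount of 0.25 understates the change of genes of low level). The median log2 change of all tested genes was -0.03. AT4 and some genes of asparagine synthesis, amino acid breakdown and the cell wall were among the largest rises. Genes of sulfate assimilation, flavonoid synthesis and salicylate-linked defence were among those that fell. The excess of lower genes was smaller by adjusted p alone, where 3154 genes were higher and 3472 lower. Without the second sufficient-Pi library of line 12, 604 genes were higher and 967 lower.

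In the same 3 days WT responded with 855 genes higher (4.32%) and 491 lower (2.48%), from libraries that share none with line 12. Only 27 genes were higher in both, which is 5.52% of the line 12 list and 3.16% of the WT list, and 61 were lower in both, 5.32% and 12.4% of the lists. In opposite directions, 332 genes were lower in line 12 and higher in WT, 29% of the genes that fell in line 12 and 38.8% of those that rose in WT. A further 90 genes were higher in line 12 and lower in WT, 18.4% and 18.3% of the lists. Leaving out the 5 libraries that stand apart leaves 1 WT library in each of these states and 1 line 12 library at sufficient Pi. Fewer genes were then higher in both, lower in both, or lower in line 12 and higher in WT. Every result without the 5 libraries thus rests on 1 sufficient-Pi library of line 12. Across the 19773 genes the log2 changes of line 12 and WT had a Pearson r of -0.20 and a Spearman rho of -0.11, given as a description because genes are not independent replicates.

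The difference between the responses was tested gene by gene. The 3-day change was more positive in line 12 than in WT for 3925 genes (19.9% of those tested) and more negative for 2638 (13.3%). This split depended on scaling: the median log2 change was -0.14 in WT and -0.03 in line 12, and after rescaling every library by its median ratio, which moved the median difference from 0.14 to 0.01, the counts were 2664 and 3232, or 45.2% more positive in place of 59.8%. Among the 489 genes that rose in line 12, 410 rose more than in WT by this test. Of the 1146 that fell, 854 differed from WT in the direction of the fall. These genes were chosen by the same line 12 change that enters the test, which raises both counts.

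**Figure D1:**
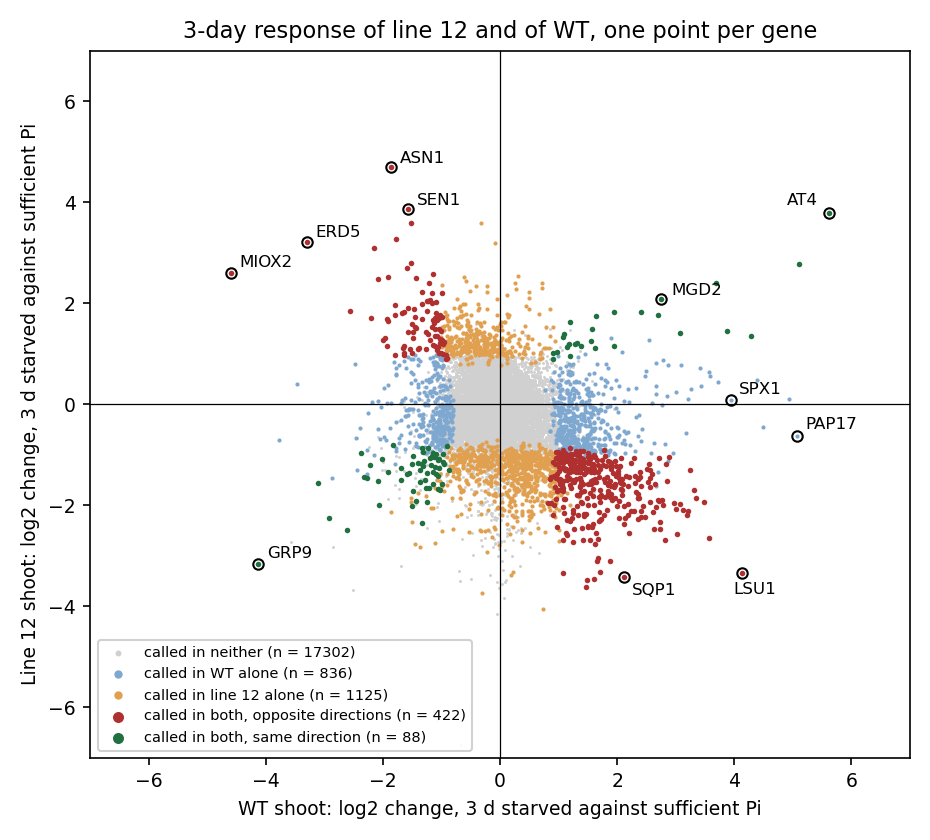
Each point is a gene, with its log2 change after 3 days of starvation against sufficient Pi in WT shoots (x axis) and in line 12 shoots (y axis), coloured by the calls in the 2 comparisons. Genes called in both lie mostly in the quadrants of opposite sign (422 against 88 of the same sign), while AT4 and MGD2 lie high in both.

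Line 4 gave a response of its own libraries that lay closer to that of line 12. It had 501 genes higher (2.53%) and 876 lower (4.43%). Of these, 220 were also higher in line 12, 45% of the line 12 list and 43.9% of the line 4 list, and 545 were also lower in line 12, 47.6% and 62.2% of the lists. Only 2 genes, AT3G24020 and AT4G17800, were lower in line 12 and higher in line 4, both near the threshold and lost without the second sufficient-Pi library of line 12 (adjusted p = 0.30 and 0.23 from limma), and 0 the other way round. Across genes, Pearson r was 0.71 and Spearman rho 0.76 between the lines. The test of the difference called 26 genes more positive (0.131%) and 14 more negative (0.0708%) in line 12 than in line 4, and 1654 genes had an unadjusted p under 0.05, so that a gene outside the 40 is not shown to respond alike. Members of the 40, named after their values were seen, included ASN1, which stood at 62.7 and 62.3 RPKM at sufficient Pi in line 4 and at 362 and 364 after 3 days. The end levels of ASN1 were thus near those of line 12 (319 and 328.5 RPKM), and the starting levels were higher than in line 12 (8.39 and 17.9 RPKM). The difference of the log2 responses was 2.16 (standard error 0.37, adjusted p = 0.039 from limma).

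Pi genes also appeared among the 40. SPX1 went from 18.3 and 14.7 to 40.6 and 45.7 RPKM in line 4, a rise that ended at the level of line 12 (40.4 and 49.5 RPKM), and the log2 responses differed by -1.30 (standard error 0.23, adjusted p = 0.039 from limma). G3PP1, a glycerol-3-phosphate permease gene, rose in line 4 to levels above the 3-day levels of line 12, though not in both libraries above the sufficient-Pi levels of line 12. It was at 2.69 and 2.22 and then 8.60 and 12.6 RPKM in line 4, against 10.9 and 10.6 and then 7.98 and 7.62 RPKM in line 12. HB-2 (AT4G16780), a homeodomain factor of the shade response, and IAA19 (AT3G15540), an auxin-induced gene, rose in line 4 to 26.2 and 32.8 RPKM and to 27.4 and 34.3 RPKM, and stayed at 7.12 to 9.60 and 6.75 to 10.8 RPKM in line 12. Neighbouring genes on chromosome 4 from AT4G15660 to AT4G15700, which RefSeq describes as thioredoxin superfamily members, went the other way: AT4G15660, AT4G15670, AT4G15680, AT4G15690 and AT4G15700 were lower in line 4 after 3 days, AT4G15680 from 16.8 and 20.9 to 3.24 and 2.52 RPKM, and did not change past the test in line 12, where AT4G15680 stood at 16.3 and 13.3 and then at 10.7 and 15.02 RPKM. These genes lie in a cluster of similar sequence, so their reads may not be fully separated.

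As a distance over 19583 genes, the root mean square log2 difference of the 3-day line 12 shoot was 0.315 from the 3-day line 4 shoot, 0.548 from WT at sufficient Pi, 0.597 from line 12 at sufficient Pi and 0.606 from the 3-day WT shoot. Replicates of these groups lay 0.293 to 0.395 apart. These are distances between single libraries, while those above are between group means, which carry less noise, so the values are not directly comparable.

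The Pi signalling genes split. AT4 (AT5G03545), which binds miR399, stood at 5.75 and 7.37 RPKM at sufficient Pi and at 110 and 78.1 RPKM after 3 days in line 12. The groups lay far apart, and the gene rose 14.4-fold (log2 change 3.78, standard error 0.29, adjusted p = 1.6e-06 from limma). In WT it went from 6.13 and 4.15 to 261 and 259 RPKM, a log2 change that exceeded that of line 12 by 1.83 (adjusted p of the difference = 0.0041 from limma). IPS1 (AT3G09922), the close relative of AT4, rose from 0.108 and 0.305 to 1.37 and 1.19 RPKM (log2 change 1.77, standard error 0.54, adjusted p = 0.021 from limma). These levels are low, and the call was lost without the first library of either state (adjusted p = 0.13 and 0.095) or without the second 3-day library (adjusted p = 0.072, all from limma).

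SPX1 (AT5G20150), whose protein holds back PHR1 and whose RNA is among the strongest Pi-starvation markers, did not follow. It stood at 46.2 and 38.8 RPKM at sufficient Pi and at 40.4 and 49.5 after 3 days in line 12, so the states overlapped (log2 change 0.08, standard error 0.16, adjusted p = 0.74 from limma). In WT it rose from 10.4 and 10.0 to 156 and 165 RPKM. Within line 12, SPX1 was not flat: after 1 day it was down at 13.1 and 12.7 RPKM, and its log2 changes were -1.69 from sufficient Pi to day 1 (adjusted p = 1.6e-05) and 1.77 from day 1 to day 3 (adjusted p = 0.0002, both from limma). SPX2 (21.2 and 19.2 against 17.57 and 19.6 RPKM) and SPX3 (0.192 and 0.271 against 0.506 and 0.176 RPKM) overlapped between the states as well, while both rose in WT.

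ZAT6 (AT5G04340), a zinc finger factor linked to Pi homeostasis, fell in line 12 from 92.5 and 54.6 to 18.5 and 17.8 RPKM (log2 change -1.95, standard error 0.32, adjusted p = 0.00042 from limma). In WT it rose from 7.32 and 10.6 to 69.5 and 72.3 RPKM. NLA (AT1G02860), a ubiquitin ligase gene that limits Pi transporters, was at 4.98 and 5.67 RPKM and then at 10.1 and 10.6, a ratio of 1.94 that just missed the fold required and passed it without the second sufficient-Pi library (log2 change 1.02), and it fell in WT. PHO2 (AT2G33770) and PHR1 (AT4G28610) moved less, to 27.1 and 26.2 RPKM from 17.85 and 20.8 and to 35.2 and 39.5 RPKM from 31.8 and 29.0. Over the 19 Pi signalling genes tested, line 12 had 2 higher and 1 lower with a median log2 change of 0.24, against -0.03 for all genes. Of all tested genes 2.47% rose and 5.8% fell in line 12, so the count of lower genes is near the overall share. WT had 8 higher and 1 lower.

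No Pi transport gene rose in line 12, and 2 of 13 tested fell, where 2.47% of all tested genes rose and 5.8% fell. In a list of this size no rise is thus near the overall share. PHT1;4 (AT2G38940), a plasma membrane Pi importer, went from 9.12 and 9.81 to 4.66 and 3.20 RPKM (log2 change -1.24, standard error 0.27, adjusted p = 0.0032 from limma, and 0.0754 without the 5 libraries that stand apart), whereas it rose in WT from 4.11 and 2.44 to 14.8 and 12.7 RPKM. PHT2;1 (AT3G26570), the Pi transporter of the chloroplast envelope, fell from 70.0 and 55.6 to 17.2 and 17.9 RPKM (log2 change -1.82, standard error 0.13, adjusted p = 1.1e-06 from limma). In WT it stayed between 33.5 and 41.8 RPKM. The change of G3PP1 (AT3G47420) did not pass the test in line 12 (log2 change -0.45, standard error 0.20, adjusted p = 0.11 from limma), while in WT the gene rose 27.3-fold. PHO1;H1 (AT1G68740), a Pi exporter gene, reached 4.46 and 3.94 RPKM from 2.25 and 2.43 (ratio 1.79, log2 change 0.78, adjusted p = 0.013 from limma), short of the fold required. PHF1 (AT3G52190), which helps Pi transporters leave the endoplasmic reticulum, was at 12.0 and 11.7 and then at 8.71 and 7.95 RPKM and rose in WT. The median log2 change of the list was -0.30 in line 12 and 0.24 in WT. The test of the difference called 5 of the 13 more negative and 0 more positive in line 12, beside 13.3% and 19.9% of all tested genes.

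Pi scavenging genes, whose products free Pi from organic molecules, were mostly within the error. PAP17 (AT3G17790), a purple acid phosphatase and a standard marker, stood at 20.4 and 18.4 RPKM at sufficient Pi and at 13.4 and 11.7 after 3 days in line 12. It was lower in both starved libraries, but its ratio of 1.55 lay under the fold required (log2 change -0.62, standard error 0.21, adjusted p = 0.037 from limma). In WT it rose 36.4-fold, from 2.71 and 1.54 to 78.0 and 76.7 RPKM. PS2 (AT1G73010), a pyrophosphatase gene, was at 1.303 and 2.29 and then at 1.69 and 2.13 RPKM in line 12, and at 1.03 and 0.224 and then at 18.1 and 30.7 in WT. PAP10 (AT2G16430), a root surface phosphatase gene, fell from 29.7 and 31.5 to 15.3 and 13.7 RPKM (log2 change -1.07, adjusted p = 3.4e-05 from limma). PAP12 (AT2G27190), a secreted phosphatase gene, was the nearest to a rise, with 20.6 and 21.96 RPKM and then 32.3 and 32.1 (ratio 1.51). Of the 10 genes tested, 0 were higher and 1 lower in line 12, and 5 were higher and 0 lower in WT. Among all tested genes 2.47% rose and 5.8% fell in line 12. In a list of this size the line 12 counts are thus near the overall shares.

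Membrane lipid genes held both answers. MGD2 (AT5G20410), which makes monogalactosyldiacylglycerol outside the usual chloroplast route, rose in line 12 from 2.42 and 2.60 to 13.4 and 9.78 RPKM (log2 change 2.08, standard error 0.15, adjusted p = 1e-06 from limma). The rise in WT, from 3.37 and 3.00 to 20.7 and 25.2 RPKM, was larger by 0.67 on the log2 scale (adjusted p of the difference = 0.027 from limma). GDPD2 (AT5G41080), a glycerophosphodiester phosphodiesterase gene, rose from 18.3 and 27.5 to 102 and 106 RPKM in line 12 and fell from 79.99 and 114 to 33.9 and 53.8 in WT. Its sister gene GDPD1 (AT3G02040) was at 34.4 and 32.8 and then at 42.5 and 51.7 RPKM in line 12, a change that did not pass (log2 change 0.48, adjusted p = 0.068 from limma), and it rose 21.5-fold in WT.

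The sulfolipid genes SQD1 (AT4G33030) and SQD2 (AT5G01220) went up 1.65-fold and 1.75-fold in line 12, past the adjusted p (0.00032 and 0.00013 from limma) and short of the fold required. MGD3 (AT2G11810), the close relative of MGD2, did so by 1.59 times (4.56 and 4.04 to 7.15 and 6.53 RPKM), beside a WT change from 3.04 and 2.81 to 32.1 and 43.6 RPKM. SQD2 stood at 36.0 and 36.8 RPKM at sufficient Pi and at 69.6 and 58.2 after 3 days. DGD1 (AT3G11670), which makes digalactosyldiacylglycerol, fell from 14.5 and 14.1 to 5.82 and 5.63 RPKM (log2 change -1.29, standard error 0.17, adjusted p = 0.0001 from limma) and rose in WT from 7.29 and 5.24 to 17.0 and 19.8 RPKM. NMT1 (AT3G18000), which methylates phosphoethanolamine on the way to phosphatidylcholine, also fell in line 12, from 21.0 and 19.7 to 8.59 and 10.1 RPKM. In all, 2 of 17 lipid genes were higher and 2 lower in line 12 with a median log2 change of 0.26, and 9 were higher and 1 lower in WT with a median of 1.05. For 10 of the 17 the response was more negative in line 12 than in WT, and for 1 it was more positive. Of all tested genes, 2.47% were higher and 5.8% lower in line 12. The response of 13.3% was more negative than in WT and that of 19.9% more positive.

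**Figure D2:**
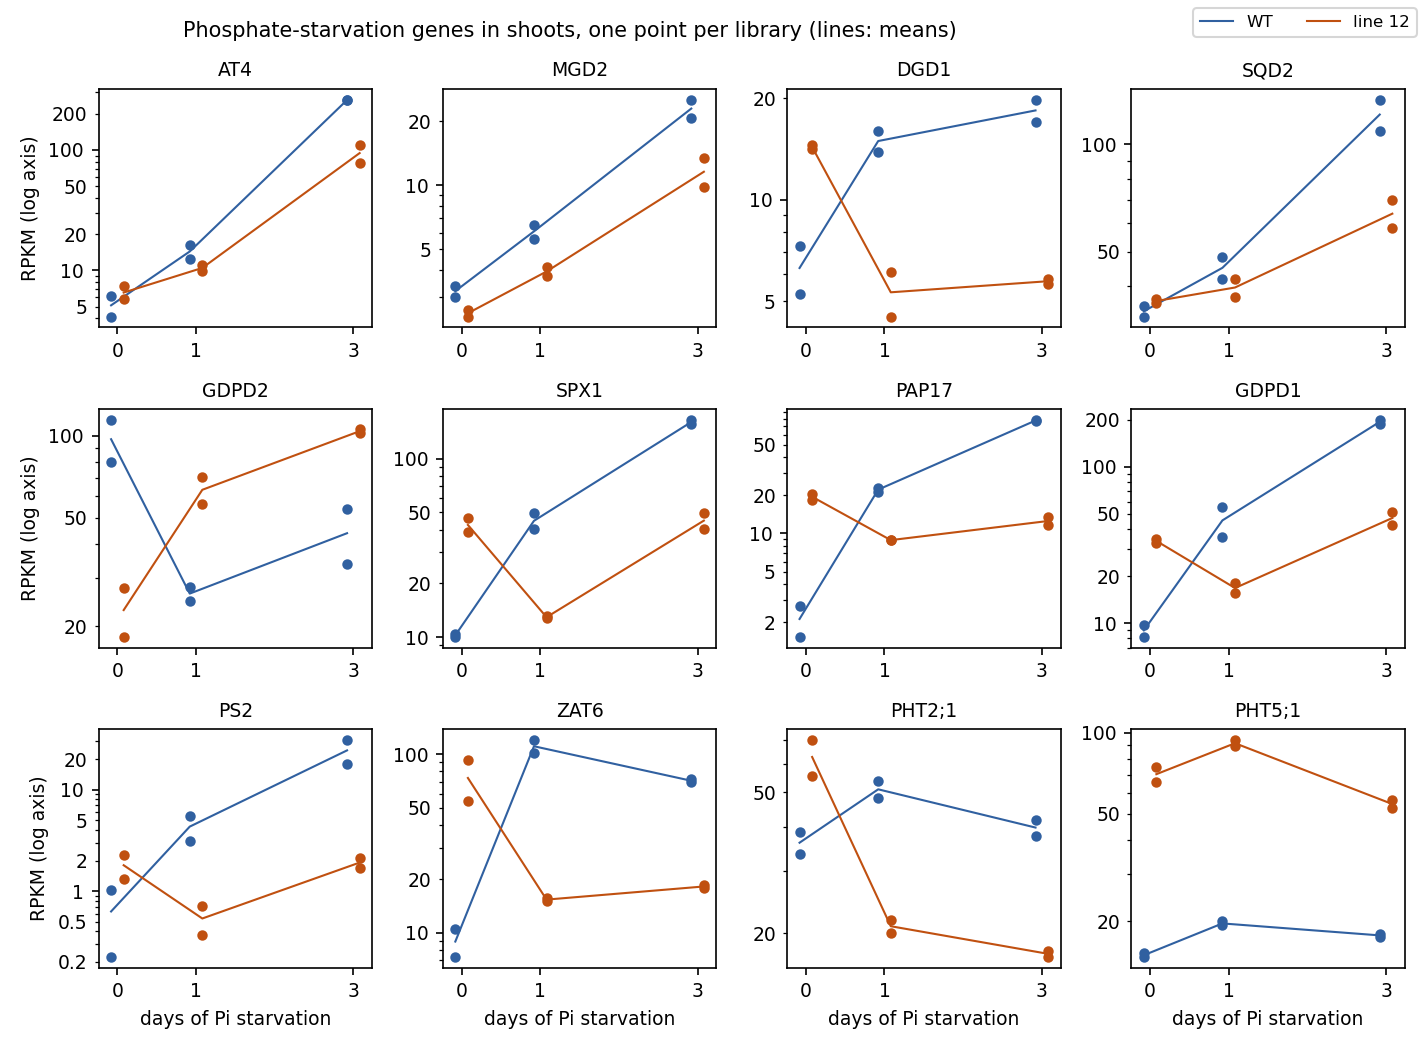
RPKM on a log axis against days of Pi starvation for 12 Pi-related genes in WT and line 12 shoots, with a point for each library and lines through the means. AT4, MGD2 and SQD2 went up in both genotypes by day 3. SPX1, PAP17 and GDPD1 started higher in line 12 than in WT, were lower at day 1, and ended far below WT, and ZAT6 and DGD1 went opposite ways.

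The P1BS palindrome, GNATATNC on either strand with N any base, was looked for in the 500 bases before the RefSeq start of each gene on the TAIR10.1 assembly. Of 59 tested Pi genes in the lists above, 21 held at least 1 match. The windows below show the match in capitals, 10 bases on each side where the window allows, written 5′ to 3′ on the strand of the gene, for genes that rose in both genotypes (AT4, MGD2), fell in line 12 and rose in WT (ZAT6), or changed past the test in WT alone (PS2, SPX3, and the match of GDPD1 nearest its start).
AT4, chr5:894546-894573, plus strand: ttggtaattgGCATATTCcttttagaag
MGD2, chr5:6896439-6896462, plus strand: atatactactGAATATTCttttgt
ZAT6, chr5:1217416-1217443, minus strand: gagctctctaGAATATTCttaagtgata
PS2, chr1:27466548-27466575, minus strand: ttgggtaacgGAATATTCttctcttatt
SPX3, chr2:18606310-18606337, plus strand: ctaaagctaaGCATATCCgctttcatat
GDPD1, chr3:350056-350083, minus strand: gcgatccaaaGAATATTCcaagatccca
The same 8 letters GAATATTC stood before MGD2, ZAT6, PS2 and GDPD1, whose RNAs took different courses in line 12. Over all 19692 promoters read, 10.8% held a match. The share was 15.2% of the genes that rose and 12.2% of those that fell in line 12, 18.1% of the genes that rose in WT, and 8 of 27 (29.6%) of the genes that rose in both. A match is a description of the letters and not a bound site.

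Several genes known from darkened or sugar-starved leaves rose in line 12. ASN1 (AT3G47340), which makes asparagine for nitrogen transport, had the largest rise, with 8.39 and 17.9 RPKM at sufficient Pi and 319 and 328.5 after 3 days. The increase was 24.7-fold (log2 change 4.69, standard error 0.26, adjusted p = 3e-07 from limma). In WT the gene fell from 158 and 165 to 40.4 and 48.6 RPKM, so that line 12 was below WT at sufficient Pi and above it after 3 days. SEN1 (AT4G35770), a senescence-linked and dark-inducible gene, went from 21.3 and 55.0 to 465 and 547 RPKM in line 12 (log2 change 3.87, standard error 0.35) and from 363 and 439 to 126 and 144 RPKM in WT. ERD5 (AT3G30775), the proline dehydrogenase that starts proline breakdown, rose from 57.4 and 70.7 to 625 and 564 RPKM (log2 change 3.22, standard error 0.18) and fell in WT from 350 and 394 to 30.8 and 45.4 RPKM. DIN10 (AT5G20250), a raffinose synthase gene of the senescence list, rose from 184 and 281 to 1055 and 870.5 RPKM. Of the 12 senescence genes tested, ASN1, SEN1 and DIN10 were the 3 that rose, and 3 others fell: SAG13, the transcription factor gene WRKY53 and the glutamine synthetase gene GLN1;4 (median log2 change 0.23). Among all tested genes 2.47% rose and 5.8% fell.

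MIOX2 (AT2G19800), a myo-inositol oxygenase, had the most positive difference between the responses, 7.19 on the log2 scale (standard error 0.44, adjusted p = 2.2e-07 from limma). It stood at 24.5 and 37.4 RPKM at sufficient Pi and at 188 and 178 after 3 days in line 12, and at 197 and 222 and then 5.22 and 13.3 RPKM in WT. STP1 (AT1G11260), a hexose-proton symporter, rose from 88.7 and 179.7 to 707 and 593 RPKM in line 12. Of 11 starch and sugar genes tested, the list that holds STP1, 2 were higher and 2 lower with a median log2 change of -0.48, and 2 were higher and 0 lower without the second sufficient-Pi library of line 12. MCCA (AT1G03090) and BCAT-2 (AT1G10070), which act in leucine and branched-chain amino acid breakdown, and THA1 (AT1G08630), a threonine aldolase, rose 5.72-fold, 5.65-fold and 6.37-fold, and all 3 fell in WT. DIN4 (AT3G13450) and BCE2 (AT3G06850), subunits of the branched-chain keto acid dehydrogenase complex, went from 22.03 and 26.5 to 73.2 and 83.0 RPKM and from 12.1 and 15.2 to 32.1 and 34.0 RPKM. IVD (AT3G45300) and MCCB (AT4G34030), later steps of leucine breakdown, rose 2.42-fold and 2.18-fold. The libraries of the states did not overlap for any of these genes, as for all 489 genes called higher. The call favours such genes, and the rule for the largest rises required it, so this adds no support. In a list of 14 branched-chain amino acid, proline and threonine breakdown genes drawn up after these values were seen, 9 were higher and 0 lower in line 12 with a median log2 change of 1.26, while 0 were higher and 6 lower in WT with a median of -0.88. For both lists of this paragraph, the shares over all tested genes were 2.47% higher and 5.8% lower in line 12.

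Cell wall genes were also among the leaders. XTH15 (AT4G14130), XTH25 (AT5G57550), XTH33 (AT1G10550) and XTH24 (AT4G30270) encode xyloglucan endotransglucosylase/hydrolases, which cut and rejoin the xyloglucan that ties cellulose fibres. XTH15 stood at 2.46 and 2.99 RPKM at sufficient Pi and at 31.6 and 39.8 after 3 days (log2 change 3.59, standard error 0.16), and XTH24 at 58.0 and 71.3 and then at 359 and 261 RPKM (log2 change 2.25, standard error 0.19). In WT both stayed within a ratio of 1.41. XTH31 (AT3G44990), of the same family, had the largest fall among the named genes on the fitted log2 scale, from 19.5 and 8.63 to 1.33 and 0.38 RPKM (log2 change -3.73, standard error 0.44, adjusted p = 4e-05 from limma). Over the 25 family members tested, a count made after these values were seen, XTH4 (AT2G06850) was the most abundant of those that rose (195.9 and 159 to 556 and 538 RPKM), and 7 were higher and 2, XTH31 and XTH32, lower in line 12. Beside these stand 2.47% higher and 5.8% lower among all tested genes. GASA1 (AT1G75750), a gibberellin-regulated small protein, rose from 170.5 and 98.0 to 755 and 792 RPKM, and JMJD5 (AT3G20810), a histone demethylase gene tied to the clock, from 9.10 and 14.5 to 57.4 and 78.3 RPKM.

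**Figure D3:**
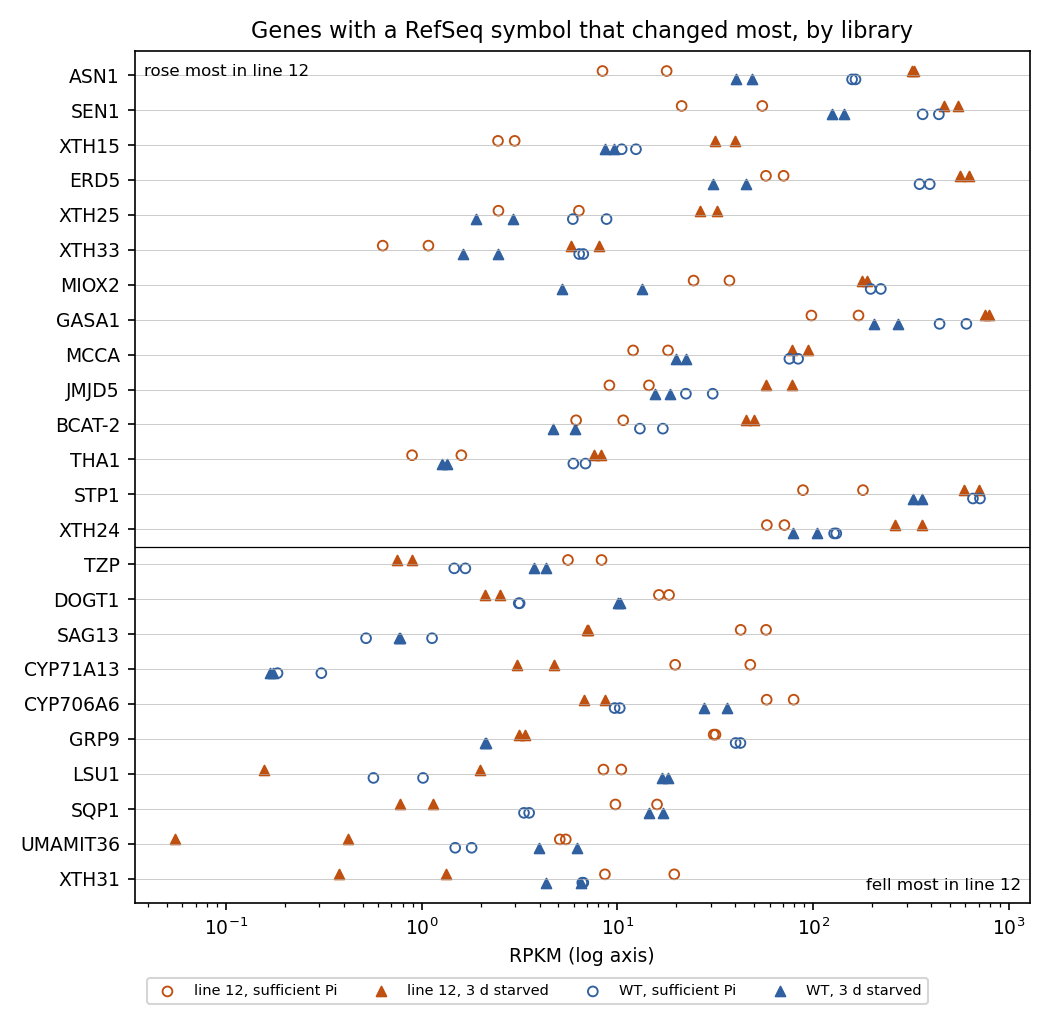
RPKM on a log axis in each library for the 14 genes with the largest rise and the 10 with the largest fall in line 12 among genes with a RefSeq symbol, which AT4 lacks, and a mean of at least 5 RPKM in the higher group (orange) and for the same genes in WT (blue), open circles at sufficient Pi and triangles after 3 days. Most rising genes, ASN1, ERD5 and MIOX2 among them, have the opposite order of circles and triangles in WT, while GRP9 fell in both.

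Genes of low-sulfur response and sulfate reduction fell in line 12 and rose in WT. LSU1 (AT3G49580), a small protein gene named for its response to low sulfur, stood at 10.5 and 8.49 RPKM at sufficient Pi and at 1.98 and 0.156 after 3 days in line 12 (log2 change -3.35, standard error 0.62, adjusted p = 0.0011 from limma). In WT it rose from 0.567 and 1.02 to 18.16 and 17.0 RPKM, and the difference of -7.48 on the log2 scale was the most negative of the named genes (standard error 0.88, adjusted p = 2.9e-05 from limma). The call of LSU1 was lost without the 5 libraries that stand apart (adjusted p = 0.0625 from limma), with the same direction. LSU3 (AT3G49570) fell from 6.21 and 5.54 to 0.816 and 0.655 RPKM, beside a WT rise from 1.27 and 0.457 to 13.8 and 10.6 RPKM. APR1 (AT4G04610) and APR3 (AT4G21990), adenosine 5′-phosphosulfate reductases of the sulfate reduction pathway, fell 4.41-fold and 4.2-fold and rose in WT 5.37-fold and 5.66-fold. Of 12 sulfur genes tested, 0 were higher and 5 lower in line 12 (LSU1, APR1, APR2, APR3 and the sulfate transporter gene SULTR1;2) with a median log2 change of -0.54, and 7 were higher and 1 lower in WT with a median of 1.35. Among all tested genes 2.47% were higher and 5.8% lower in line 12. SULTR1;2 fell in WT as well. In line 12 it was at 2.95 and 7.20 RPKM and then at 2.02 and 2.27, and its call was lost without the second sufficient-Pi library (adjusted p = 0.39 from limma) or without either 3-day library. Without that sufficient-Pi library the lower count was 4 and the median -0.22, and without all 5 libraries that stand apart the count was 3.

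Flavonoid and anthocyanin synthesis genes were lower after starvation in line 12. CHS (AT5G13930), chalcone synthase at the head of the pathway, fell from 16.6 and 15.3 to 5.24 and 3.43 RPKM (log2 change -1.85, standard error 0.21, adjusted p = 3.5e-05 from limma). MYB75 (AT1G56650), the activator of the late pathway genes, fell from 1.86 and 1.85 to 0.135 and 0.265 RPKM and rose in WT from 0.0915 and 0.246 to 2.31 and 1.59 RPKM. PAL1 (AT2G37040), phenylalanine ammonia-lyase at the entry to all phenylpropanoids, fell from 42.4 and 52.7 to 15.04 and 13.5 RPKM. LDOX (AT4G22880), which acts late, fell 3.41-fold, and GSTF12 (AT5G17220), needed to bring anthocyanins into the vacuole, fell 2.69-fold, though neither passed without the 5 libraries that stand apart (adjusted p = 0.0541 and 0.0533 from limma). F3'H (AT5G07990), which adds a hydroxyl group to the flavonoid ring, was at 2.11 and 2.43 and then at 2.31 and 3.32 RPKM and did not pass the test. In total 11 of 18 tested genes were lower and 0 higher in line 12 (median log2 change -0.98), against 3 higher and 0 lower in WT (median 0.41). The response was more negative in line 12 than in WT for 13 of the 18. Among all tested genes 5.8% were lower and 2.47% higher in line 12, and 13.3% had a more negative response than in WT. The count of 11 was 9 without the second sufficient-Pi library of line 12 and 7 without the 5 libraries that stand apart.

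Genes of salicylate-linked defence were high at sufficient Pi in line 12 and lower after 3 days. PR5 (AT1G75040), a thaumatin-like protein, stood at 164 and 256 RPKM and then at 49.9 and 43.9 RPKM (log2 change -2.12, standard error 0.34, adjusted p = 0.00042 from limma), while WT lay between 7.33 and 12.1 RPKM in both states. ICS1 (AT1G74710), which starts salicylate synthesis, fell from 16.2 and 20.3 to 5.43 and 7.12 RPKM. PBS3 (AT5G13320), which joins salicylate precursor and glutamate, went from 6.07 and 11.9 to 1.59 and 1.79 RPKM, and CBP60G (AT5G26920), an activator of ICS1, from 27.0 and 39.8 to 9.82 and 9.55 RPKM. WRKY70 (AT3G56400), a transcription factor of the pathway, fell from 211.8 and 307.5 to 76.7 and 99.9 RPKM and rose in WT from 26.7 and 37.7 to 165 and 205 RPKM. NIMIN1 (AT1G02450), which binds the salicylate receptor NPR1, fell from 11.8 and 13.4 to 2.06 and 3.13 RPKM against a rise in WT from 0.309 and 1.11 to 6.30 and 9.42. PR1 (AT2G14610), the best known marker, was at 712 and 979 and then at 222 and 290 RPKM in line 12, but its WT libraries at sufficient Pi were far apart (49.1 and 2.27 RPKM) and its change did not pass in the fit that pools the spread of all shoot groups (adjusted p = 0.22 from limma). It passed when only the 4 libraries of each tested difference entered the fit (adjusted p = 0.0023 from limma). Line 4 at sufficient Pi also had libraries far apart, in which the salicylate list summed to 1508 and 477.7 RPKM. Which group's spread mattered for PR1 was not tested.

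Over 17 tested salicylate genes, 10 were lower and 0 higher in line 12 (median log2 change -1.54), and 7 were higher and 0 lower in WT (median 0.63). The count of 10 rests in part on the library that stands apart: it was 6 without the second sufficient-Pi library of line 12, with a median of -1.35, and 1 without all 5 such libraries. PR5, NIMIN1 and WRKY70 kept their direction without the 5 libraries but not their call (adjusted p = 0.0502, 0.095 and 0.0995 from limma). Few jasmonate and ethylene genes passed either threshold, in a comparison where 2.47% of all tested genes were called higher and 5.8% lower. Of 18 tested, 0 were called in either direction in line 12 (median -0.01, limma, with 3 at an unadjusted p under 0.05), and 8 were higher in WT (median 1.21). At an adjusted p under 0.05 but under the fold required, AOS (AT5G42650) and AOC2 (AT3G25770) of jasmonate synthesis were lower, AOC2 at 369 and 350 and then at 209 and 230 RPKM. AOC2 has close copies whose reads the counting could have split. ACS6, an ethylene synthesis gene outside this list, is described with the largest falls.

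Other genes with the largest falls were spread over several roles. SQP1 (AT5G24150), a squalene monooxygenase of sterol synthesis, fell from 15.9 and 9.77 to 1.14 and 0.778 RPKM (log2 change -3.41, standard error 0.24) and rose in WT from 3.54 and 3.33 to 17.0 and 14.5 RPKM. UMAMIT36 (AT1G70260), an amino acid transporter family gene, fell from 5.08 and 5.45 to 0.422 and 0.0551 RPKM. CYP706A6 (AT4G12320), a cytochrome P450 gene, fell from 79.5 and 57.9 to 6.73 and 8.66 RPKM (log2 change -3.11, standard error 0.18), and DOGT1 (AT2G36800), a glucosyltransferase that acts on brassinosteroids, from 18.4 and 16.3 to 2.53 and 2.12 RPKM. CYP71A13 (AT2G30770), of camalexin synthesis, and SAG13 (AT2G29350), a senescence-linked dehydrogenase, stood at 19.7 and 47.7 RPKM and at 42.6 and 57.5 RPKM at sufficient Pi in line 12, and both were at most 1.13 RPKM in the 4 WT libraries. They fell to 3.06 and 4.72 RPKM and to 6.997 and 7.04 RPKM. GRP9 (AT2G05440), a glycine-rich protein gene, fell in line 12 from 31.03 and 31.7 to 3.35 and 3.16 RPKM and in WT from 40.2 and 42.5 to 2.11 and 2.13 RPKM, and the difference of the responses did not pass (0.96 on the log2 scale, standard error 0.66, adjusted p = 0.29 from limma). TZP (AT5G43630), a zinc knuckle protein of light-regulated growth, fell from 8.30 and 5.59 to 0.747 and 0.893 RPKM. Without the 5 libraries that stand apart, the falls of CYP71A13 and SAG13 no longer passed (adjusted p = 0.149 and 0.0699 from limma). ACS6 (AT4G11280), which makes the ethylene precursor, fell 6.61-fold and rose in WT 7.29-fold.

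The WRKY transcription factors, counted as a family after these values were seen, had 13 of 56 tested members lower and 0 higher in line 12, and 10 higher and 2 lower in WT. For this family and the heat shock genes below, the shares over all tested genes were 5.8% lower and 2.47% higher in line 12. WRKY33 (AT2G38470), which acts against necrotrophic fungi, fell from 170 and 211 to 43.2 and 43.8 RPKM and rose in WT from 14.4 and 18.1 to 128 and 182 RPKM. Without the second sufficient-Pi library of line 12 the family's lower count was 7, and without all 5 libraries that stand apart it was 3. Heat shock genes, of which HSP17.4 (AT3G46230), a small chaperone, went from 1.66 and 1.77 to 0.0853 and 0.111 RPKM, had 4 of 7 tested members lower and 0 higher in line 12. The others that fell were HSP70-4, the heat shock factor gene HSFB2A (2.50-fold) and HSP90.1, whose call was lost without the second sufficient-Pi or the first 3-day library (log2 change -0.92 and -0.79). Levels were low: the whole list summed to 29.3 and 27.2 RPKM at sufficient Pi and to 11.6 and 12.35 after 3 days.

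No photosynthesis gene rose in line 12, where 2.47% of all tested genes rose and 5.8% fell, so the calls of this list lay near the overall shares. Of 34 tested, 3 fell in line 12, all of them antenna proteins of photosystem II, and by adjusted p alone 12 were lower and 0 higher, beside 3472 lower and 3154 higher among all 19773 genes. The median log2 change was -0.17 against 0.17 in WT. The response was more negative in line 12 than in WT for 14 of the 34 and more positive for 0. Of all tested genes, 13.3% were more negative and 19.9% more positive. LHCB2.1 (AT2G05100) went from 2132 and 1585 to 653 and 556 RPKM (log2 change -1.61, standard error 0.15, adjusted p = 5.2e-06 from limma). LHCB1.1 and LHCB2.2 were lower by 2.32 and 2.39 times. These genes have near-identical copies, so that reads could be assigned to the wrong copy. The 6 shoot markers had 0 calls in limma, but all 6 passed the adjusted p in the lower direction with a median log2 change of -0.54. Their summed level was 25140 and 22230 RPKM at sufficient Pi and 17060 and 15780 after 3 days, and its part in the other changes was not tested. Among them was RCA (AT2G39730), the activase of Rubisco, at 2966 and 2553 and then at 1729 and 1607 RPKM.

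Clock genes moved with the comparison. CCA1 (AT2G46830), a morning gene at the centre of the circadian clock, was at 3.97 and 2.27 RPKM at sufficient Pi and at 0.619 and 0.344 after 3 days in line 12 (log2 change -2.18, standard error 0.26, adjusted p = 3.9e-05 from limma). PRR9 (AT2G46790), which peaks after CCA1, went from 2.73 and 1.74 to 0.203 and 0.132 RPKM in line 12 and from 0.389 and 0.369 to 1.53 and 1.91 RPKM in WT. RVE8 and GI were lower in line 12 by 3.7 and 2.05 times, the latter call being lost without the second sufficient-Pi or the first 3-day library (log2 change -0.96 and -0.97). TOC1 (AT5G61380), an evening gene, was at 53.5 and 71.4 and then at 92.0 and 91.5 RPKM, short of the fold required. Of 11 clock genes tested, 4 were lower and 0 higher in line 12, and 4 responses were more positive and 5 more negative than in WT. The shares over all tested genes were 5.8% lower and 2.47% higher, and 19.9% more positive and 13.3% more negative. In a list of this size 0 higher is thus near the overall share. The summed level of the 12 genes was 388 to 408 RPKM in the 4 line 12 libraries. The evening element AAAATATCT, a clock motif, was found on either strand in 4.63% of all promoters, in 5.97% of the genes that rose and in 6.3% of those that fell in line 12. The sources used here do not give the hour of harvest of each group, and the part of the clock in the other changes was not tested.

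**Figure D4:**
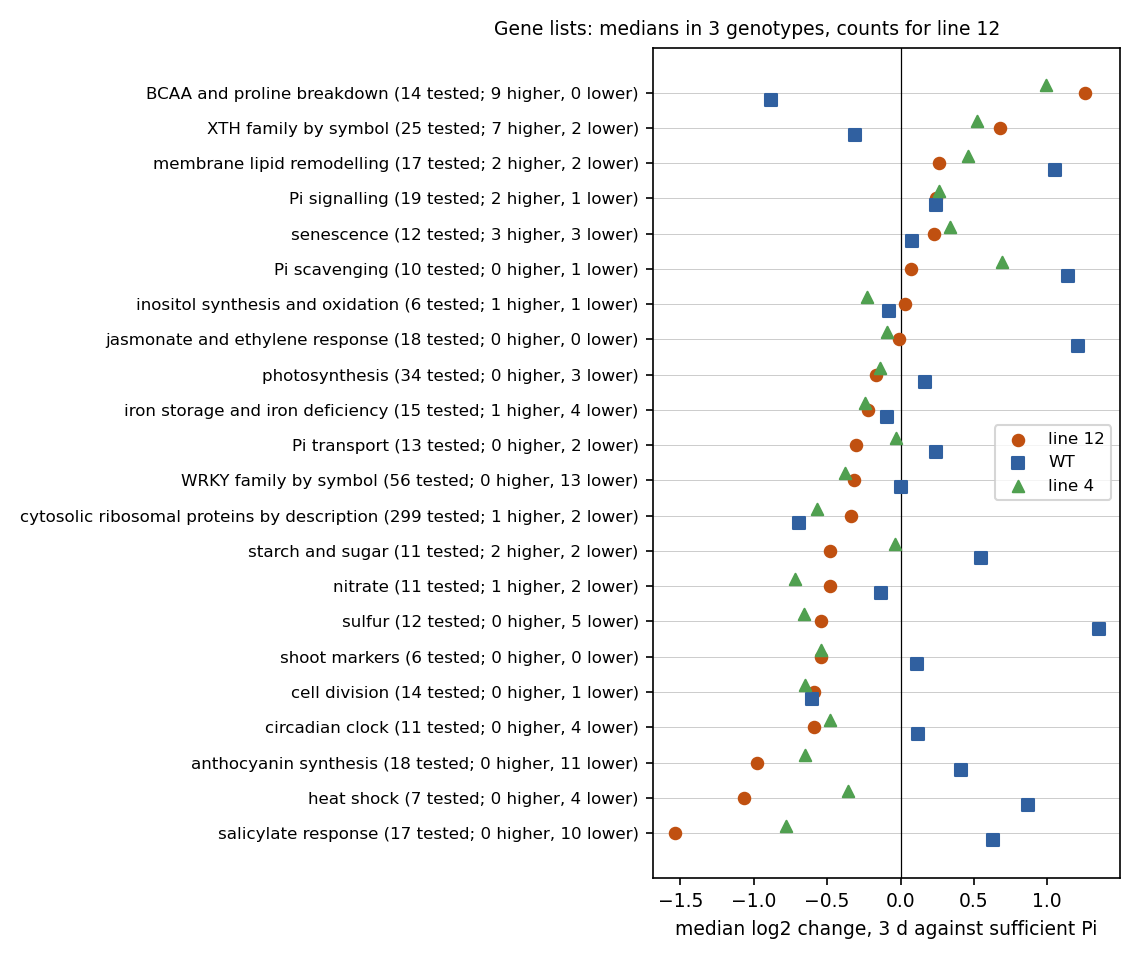
Median log2 change of each gene list after 3 days of starvation in line 12 (circles), WT (squares) and line 4 (triangles), with the number tested and called in line 12 beside each name. Salicylate, heat shock, anthocyanin and sulfur lists lie below 0 in line 12 and above 0 in WT, and the amino acid breakdown list lies the other way, with line 4 on the side of line 12.

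Part of the change was in place after 1 day. At that time 366 genes were higher (1.85%) and 630 lower (3.19%) than in the same sufficient-Pi libraries, which enter both comparisons, so the values are given side by side only. Between day 1 and day 3, 48 genes rose (0.243%) and 85 fell (0.43%). ASN1 was at 191 and 178 RPKM after 1 day, MIOX2 at 195 and 223, APR1 at 19.9 and 16.7, and ZAT6 at 15.1 and 15.6, each nearer to its 3-day than to its sufficient-Pi level. AT4 and MGD2 behaved otherwise: after 1 day they were at 11.1 and 9.87 RPKM and at 4.13 and 3.75 RPKM, and they rose from day 1 to day 3 with log2 changes of 3.12 and 1.48 (adjusted p = 0.0002 and 0.00024 from limma). PR5, at 250 and 155 RPKM after 1 day, was still at its sufficient-Pi level then.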

How the data were processed

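RNA of pooled shoots was sequenced as paired reads, which the authors trimmed and mapped to the TAIR10 genome with CLC Genomics Workbench, and the deposited values are RPKM per library. Whether counting used strand is not given in the sources used here. The authors' own means and log2 ratios were not used. Rows without a gene name (146, at most 0.109% of the RPKM of a library) were left out. Genes that averaged 0.25 RPKM or more across the 18 shoot libraries were tested with limma 3.58.1 in R 4.3.3, with a variance trend, on log2(RPKM + 0.25) over 9 groups of 2 libraries, with Benjamini-Hochberg adjustment across all 19773 genes. Means under 0.25 RPKM were set to 0.25 for ratios. Differences between responses were called by adjusted p alone. Of the 28496 genes, 28009 matched RefSeq, which gave symbols and the TAIR10.1 starts. Read totals were recovered from the steps of the RPKM values of single-exon genes.

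Genes were named by rule: the 14 largest rises and 10 largest falls among called genes with a RefSeq symbol, a mean of at least 5 RPKM in the higher group and libraries that did not overlap; the 6 most positive and 6 most negative differences from WT; and members of the gene lists. Members, lists and tests were chosen with earlier results of these data known. On simulated data for this comparison (19773 genes), 88% of genes changed by 1.5 on the log2 scale and 97% of those changed by 2 were called, with 3 false calls among 188. The simulation changed 100 genes at each size, all of a higher mean RPKM than the filter of the test required. Its errors were independent and normal, with no library that stands apart, so these rates need not hold for the data. Alternatives covered the pseudocount, the filter, the fold, median-ratio rescaling, the variance trend, the libraries in the fit, a replicate block, and leaving out libraries.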

Additional observations from a re-analysis of the deposited data

Results flagged for a closer look

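The 3-day response differed from that of WT, by the test of the difference itself, in the more positive direction for 3925 genes and in the more negative direction for 2638. Median-ratio rescaling turned this split, with 2664 more positive and 3232 more negative. Differences from line 4 were found for 26 genes more positive and 14 more negative.

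Among named genes, the log2 response of line 12 exceeded that of WT by 7.19 for MIOX2, 6.55 for ASN1, 6.52 for ERD5, 5.44 for SEN1, 4.58 for THA1 and 4.43 for MCCA, each of which rose in line 12 and fell in WT. The difference was negative for LSU1 (-7.48), LSU3 (-6.21), PAP17 (-5.70), SQP1 (-5.53), ACS6 (-5.52) and NIMIN1 (-5.39). All of these rose in WT, and all but PAP17, whose ratio in line 12 was under 2, fell in line 12.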

How the results depend on the processing

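Groups of 2 libraries limit every test, and genes of a few RPKM, such as IPS1, PS2 and SPX3, are the least certain at 24.2 to 34.0 M reads a library. Of 2172 values of 121 gene results under 18 alternatives, 2117 kept their direction and their side of the threshold, 46 lost a call, 3 gained one and 6 changed sign, all of the last among uncalled changes. Several alternatives, such as the filter or leaving out a WT library, cannot move a log2 change of line 12. They could alter only its p-value, so the count of 2117 is not a measure of robustness. The log2 change of SPX1 ranged from -0.07 to 0.22 and that of PS2 from -0.24 to 0.47 when 1 library was left out, and that of SPX3 from -0.17 to 0.65; SPX1 was at -0.05 without the 5 libraries that stand apart and -0.05 without the second sufficient-Pi library of line 12, and PS2 at -0.04 without the second 3-day library. Leaving out 1 library at a time gave 436 to 604 genes higher and 929 to 1152 lower in line 12, and 38 to 61 lower in both genotypes, the lowest without the second sufficient-Pi library of line 12. Of the main lists, 404 of the higher and 843 of the lower genes were called without that library, and 384 and 714 without the 5 libraries. Without the 5 libraries (an alternative chosen after seeing the data), the difference from WT was more positive for 2275 genes and more negative for 1489, 16 genes were higher in both, 18 lower in both, and 154 lower in line 12 and higher in WT. With a ratio of at least 1.5, 1561 genes were higher and 2262 lower in line 12, 72 higher and 328 lower in both, 655 lower in line 12 and higher in WT, and 308 the reverse. With adjusted p alone the counts were 3154, 3472, 155, 882, 945 and 923 in the same order. These follow from the looser rule; for the libraries left out, the cause was not tested. The labels do not tie a replicate number to a shared batch, so the numbers were not taken to pair the samples. Residuals of same-numbered libraries correlated at 0.06 in line 12, 0.609 in WT and 0.62 between WT and line 12 at sufficient Pi (median of 36 group pairs 0.0245, highest 0.699). Without the genes seen only in second replicates these were 0.0934, 0.0544 and 0.158 (highest 0.238). With the replicate block 491 genes were higher and 1148 lower, and 3927 and 2657 differed from WT.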

Other observations

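Iron, nitrate and inositol genes gave small sets of calls in line 12. FER1, the iron storage protein ferritin, rose from 79.6 and 90.0 to 197 and 193 RPKM, and NAS1 and NAS3, which make the iron chelator nicotianamine, fell from 11.3 and 8.79 to 1.21 and 1.88 RPKM and from 8.32 and 5.42 to 2.89 and 1.71 RPKM. Of 15 iron genes tested, 1 was higher and 4 lower, and 0 were higher and 1 lower in WT. Shares over all tested genes were 2.47% higher and 5.8% lower in line 12. NRT1.8, which takes nitrate out of the xylem, rose from 6.54 and 5.14 to 16.7 and 11.6 RPKM, while NRT1.5, which loads it, fell from 3.97 and 4.80 to 1.86 and 1.60 RPKM and NIA1, a nitrate reductase, from 25.7 and 31.6 to 11.4 and 13.0 RPKM. The rise of NRT1.8 was below the fold required without the first 3-day library (log2 change 0.97). MIPS1, which makes myo-inositol phosphate, fell from 38.4 and 30.97 to 14.8 and 11.6 RPKM beside the rise of MIOX2, which breaks inositol down.

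Few genes of cell division and of the ribosome passed the fold in line 12, where 2.47% of all tested genes were called higher and 5.8% lower. PCNA1, the sliding clamp of DNA replication, fell from 19.8 and 16.1 to 9.19 and 7.75 RPKM and was the only 1 of 14 cell division genes past the fold, with a median log2 change of -0.59 in line 12 and -0.60 in WT. By adjusted p alone, 9 of the 14 were lower and 0 higher in line 12. The call of PCNA1 was lost without the first sufficient-Pi or the second 3-day library (log2 change -0.91 and -0.94). Of 299 genes described as cytosolic ribosomal proteins, 1 was higher and 2 lower in line 12 (median -0.34; by adjusted p alone, 13 higher and 144 lower), and 0 were higher and 18 lower in WT (median -0.69). The response was more positive in line 12 than in WT for 77 of them and more negative for 2, before any rescaling of the libraries. Over all tested genes these shares were 19.9% and 13.3%, a split that depended on scaling. Plastid members could not be wholly told apart by description.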
